A study of Mus musculus
Mus spretus with 18 samples.

Results

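The genes described here are 8 core factors of nonsense-mediated decay in the mouse, Upf1, Upf2, Upf3a, Smg1, Smg5, Smg6, Smg8 and Smg9, taken by gene symbol from 38924 genes with expression values and from 125200 skipped-exon (SE) events listed in any splicing table. All 8 had expression values, 130 SE events belonged to them, and none of the 2243 retained introns listed for the fibroblasts did. The RNA came from first-generation hybrids between a C57BL/6J mother and a SPRET/EiJ father, so each gene carried 1 allele of each species. The 18 libraries form 9 groups of 2, namely cortex, heart, kidney, lung, spleen and liver of 8-week-old hybrids, embryonic stem cells (ESC), and hybrid fibroblasts after 4 h of either DMSO (control) or 0.1 microM pladienolide B (PladB). The labels of the liver libraries name the maternal strain as C57BL/7J and C57BL/8J. The fibroblast groups share 1 cell line, no source used here says that their replicates were separate cultures, and the p-values for them therefore measure only the spread between these libraries, which may be technical. The organs came from 2 animals and the ESC from 2 independent clones.

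Nonsense-mediated decay destroys mRNAs on which a ribosome stops well upstream of the normal end of the coding sequence, as happens when an exon is skipped out of frame or an intron is kept. UPF1, an RNA helicase, is the hub of the pathway, UPF2 links it to UPF3A or UPF3B on the exon junction complexes that splicing leaves behind, and the kinase SMG1, held in check by SMG8 and SMG9, phosphorylates UPF1. Phosphorylated UPF1 then recruits SMG6, which cuts the RNA, and SMG5, which helps to bring in the decapping and deadenylation enzymes. Pladienolide B binds the SF3B complex of the U2 snRNP and blocks splicing, so it changes both the supply of exon junction complexes and that of aberrant RNAs.

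The 8 genes lie on 5 chromosomes of GRCm38 (mm10). Upf2 (ENSMUSG00000043241) is at chr2:5951447-6056703, Smg5 (ENSMUSG00000001415) at chr3:88336259-88362338, Smg9 (ENSMUSG00000002210) at chr7:24397517-24422777 and Smg1 (ENSMUSG00000030655), on the minus strand, at chr7:118131308-118244437. Upf3a (ENSMUSG00000038398) is at chr8:13785055-13798723 and Upf1 (ENSMUSG00000058301), on the minus strand, at chr8:70331493-70353423. Smg6 (ENSMUSG00000038290) is at chr11:74925854-75164448 and Smg8 (ENSMUSG00000020495), on the minus strand, at chr11:87077732-87086777. Smg6 is the longest of the genes, at 238595 bases, and Smg8 the shortest, at 9046 bases.

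Junction reads over SE events numbered 46558287 to 129496306 in a tissue library and 129067054 to 151755602 in a fibroblast library. Of 32 tissue markers, 30 were highest in their own group, the exceptions being the fibroblast markers Col3a1 and Thy1. In liver replicate 1, 3 windows of 10 Mb on chromosome 7 gave junction reads almost only from the C57BL/6J allele (medians of 99.69%, 99.95% and 99.98%), and Smg9 lies in 1 of them. There, an exon of Smg9 had 204 C57BL/6J and 0 SPRET/EiJ reads in liver replicate 1, against 95 and 75 in liver replicate 2. The median gene also differed between libraries, by 2.11 on the log2 scale between cortex (3.91) and liver (1.80), and in PladB fibroblasts it stood at -1.43 log2 relative to control. Levels are therefore given both as deposited, in TPM (transcript abundance scaled to the same total in every library), and relative to the median gene of each library.

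The first question was how the levels of these factors differ between tissues. As deposited, all 8 were lowest in liver, and 6 of the 8 were highest in ESC, where 26.4% of all genes were highest. The share of all genes lowest in liver was not computed, and the median gene was also lowest there. Highest in ESC were also 8 of 11 other factors of the pathway, 6 of 7 exon junction complex genes, 8 of 13 decay enzymes and 6 of 8 targets. A peak in ESC was thus not particular to the 8. Upf3a was highest in lung and Smg9 in spleen. All 8 passed the test across tissues (limma, adjusted p under 0.05 and a range of at least 1 on the log2 scale), but so did 99.0% of the 19138 genes tested, so the count does not set these genes apart. Relative to the median gene, 6 of 8 passed, against 96.3% of all genes, and Smg6 and Upf3a had ranges of 0.62 and 0.63 log2. In whole tissues, fewer cells of a type and less RNA per cell cannot be told apart.

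Upf1 and its partners came to different levels. Upf1 was 43.4 and 46.8 TPM in cortex, 45.9 and 43.4 in heart, 43.9 and 43.5 in kidney, 64.1 and 64.2 in lung, 88.1 and 78.9 in spleen, 25.5 and 25.4 in liver, and 84.6 and 84.7 in ESC. Spleen and ESC overlapped at the top, cortex, heart and kidney overlapped in the middle, and both liver libraries lay below every other. ESC and spleen did not differ beyond their spread (adjusted p = 0.846), nor did cortex and heart (adjusted p = 0.907) or heart and kidney (adjusted p = 0.808), whereas the steps from spleen to lung, lung to cortex and kidney to liver all passed (adjusted p = 0.0060, 0.00084 and 4.46e-05). Upf1 varied least of the 8 as deposited, with an ESC mean 3.32 times the liver mean. Relative to the median gene of each library, liver (2.88 log2 above it), ESC (2.85), heart (2.79) and spleen (2.79) did not differ beyond their spread for Upf1, and cortex (1.59) was lower than all 6 others.

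Upf2, the bridge between UPF1 and UPF3, was 42.3 and 42.5 TPM in cortex, 14 and 14.5 in heart, 20.3 and 19 in kidney, 20.01 and 20.2 in lung, 31.9 and 30.7 in spleen, 8.93 and 9.69 in liver, and 80.5 and 59.2 in ESC. Every neighbouring step in the order from ESC to liver passed the test except that between lung and kidney (adjusted p = 0.836). The ESC mean was 7.50 times the liver mean, and ESC stayed the highest relative to the median gene (2.56 log2 above it), with cortex next (1.498) and the difference between them past the threshold (1.06 log2, adjusted p = 1.04e-05).

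Upf3a, the autosomal of the 2 UPF3 paralogues, was 58.0 and 61.2 TPM in cortex, 27.5 and 24.9 in heart, 32.4 and 36.5 in kidney, 65.2 and 64.3 in lung, 54.8 and 47.7 in spleen, 12.3 and 12.1 in liver, and 55.3 and 51.0 in ESC. From lung through cortex and ESC to spleen no neighbouring step passed (adjusted p = 0.355, 0.198 and 0.681), but lung was higher than ESC (adjusted p = 0.0387) and than spleen (adjusted p = 0.0230). Kidney, heart and liver followed below. Relative to the median gene no neighbouring step of Upf3a passed, yet lung (2.43 log2) was higher in 5 of its 6 pairs, and liver (1.83) and kidney (1.80) were at the foot.

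Smg1, the kinase, spanned the widest range, with an ESC mean 16.5 times the liver mean. It was 37.5 and 36.0 TPM in cortex, 5.07 and 6.55 in heart, 8.90 and 7.76 in kidney, 8.22 and 7.64 in lung, 29.7 and 25.6 in spleen, 3.70 and 3.39 in liver, and 49.8 and 67.1 in ESC. The tissues therefore fell into a high set of ESC, cortex and spleen and a low set of kidney, lung, heart and liver, with a step of 1.72 log2 between spleen and kidney (adjusted p = 1.56e-05). The same sets stood apart relative to the median gene, where the step was 1.13 log2 between spleen and liver (adjusted p = 0.0005). Smg1 was the lowest of the 8 genes in heart, kidney, lung, liver and control fibroblasts.

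Its inhibitory partners did not share that order. Smg8 was 15.4 and 15.8 TPM in cortex, 12.4 and 11.96 in heart, 13.6 and 13.1 in kidney, 16.0 and 17.0 in lung, 18.7 and 18.6 in spleen, 6.57 and 7.05 in liver, and 44.2 and 41.3 in ESC. ESC stood 1.19 log2 above spleen, the next tissue (adjusted p = 1.97e-06), and 0.88 above the next tissue relative to the median gene (adjusted p = 1.79e-05). Smg9 was 24.4 and 24.4 TPM in cortex, 7.88 and 7.63 in heart, 11.5 and 11.5 in kidney, 17.2 and 17.0 in lung, 32.4 and 25.7 in spleen, 4.03 and 3.65 in liver, and 14.8 and 18.3 in ESC. Spleen was its highest tissue but did not differ from cortex beyond the spread (adjusted p = 0.139), whereas relative to the median gene spleen stood above all 6 others, by 0.56 log2 over cortex (adjusted p = 0.0107). Smg9 was the lowest of the 8 genes in ESC.

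Among the effectors, Smg5 reached the highest level of any member. It was 67.1 and 70.6 TPM in cortex, 58.2 and 56.7 in heart, 42.7 and 40.2 in kidney, 44.9 and 46.8 in lung, 77.2 and 69.8 in spleen, 14.8 and 15.2 in liver, and 124 and 157 in ESC. ESC exceeded spleen by 0.92 log2 (adjusted p = 9.59e-05), while spleen and cortex, cortex and heart, and lung and kidney did not differ beyond their spread (adjusted p = 0.515, 0.0812 and 0.331). Smg6, the endonuclease, was flatter, at 23.3 and 23.7 TPM in cortex, 12.8 and 13.1 in heart, 25.01 and 22.7 in kidney, 20.3 and 19.5 in lung, 21.4 and 18.7 in spleen, 6.43 and 6.57 in liver, and 24.1 and 25.4 in ESC. From ESC down to lung no neighbouring step of Smg6 passed, although lung and spleen each passed as lower than ESC (adjusted p = 0.0162 and 0.0201) and than kidney (adjusted p = 0.0460 and 0.0469). As deposited, heart and liver stood below these 5 tissues (adjusted p = 0.000422 for lung over heart and 1.49e-05 for heart over liver). Relative to the median gene this order of Smg6 did not hold, and no neighbouring step passed. Kidney (1.27 log2) and ESC (1.08) were highest, and heart (1.01) and liver (0.92) lay above spleen (0.73), lung (0.73) and cortex (0.65). On that scale Smg5 was highest in ESC (3.57), followed by heart (3.16) and spleen (2.60), and both steps passed.

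**Figure D1:**
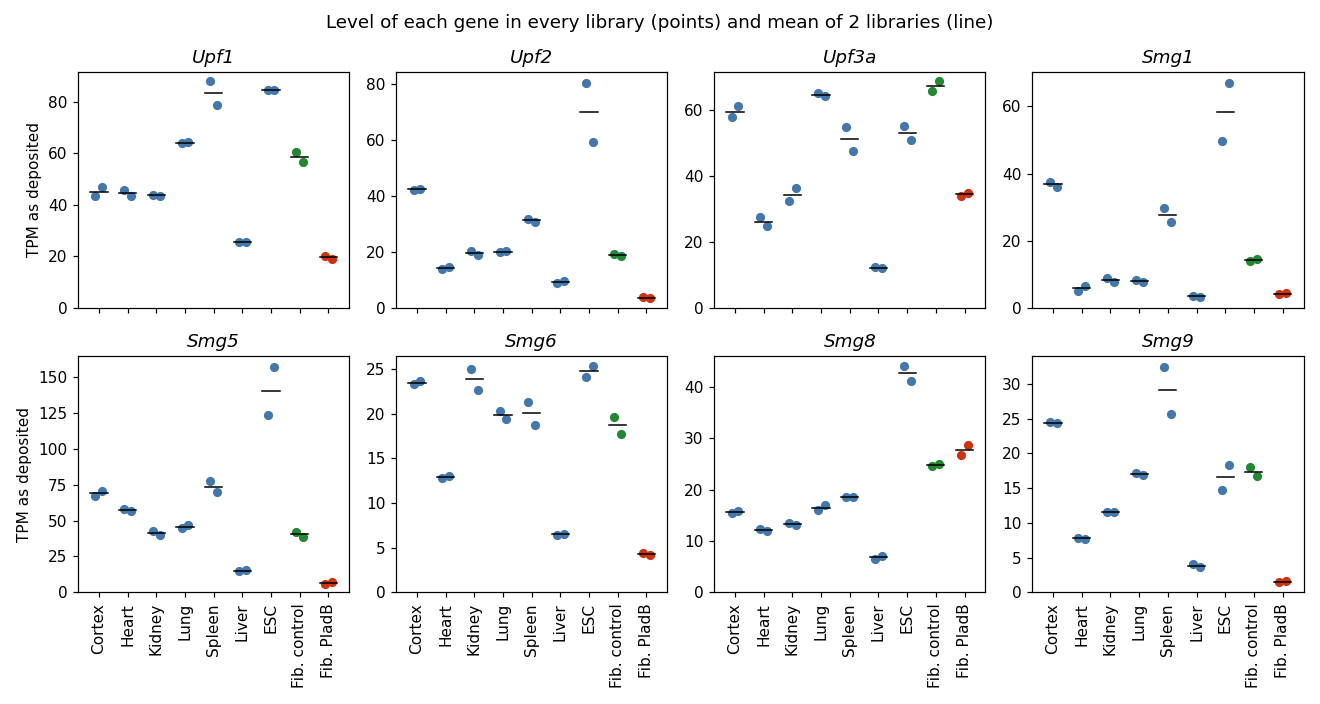
TPM as deposited (vertical axis, from 0, a separate scale for each gene) in every library of the 9 groups (horizontal axis); points are libraries and lines the mean of 2. Liver is the lowest tissue in all 8 panels, ESC the highest tissue in 6, and the 2 PladB libraries lie below the 2 control libraries in 7. Of all genes, 26.4% were highest in ESC and 72.6% fell after PladB. The shares lowest in liver or without overlap after PladB were not computed over all genes.

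Over the 21 pairs of tissues, 143 of 168 differences of a member passed (85.1%), against 76.2% over all genes, and 104 of 168 passed relative to the median gene (61.9%, against 73.9%). Liver shows how far this depends on the scale. It was the lower tissue in 48 of its 48 comparisons as deposited, but relative to the median gene it was higher in 12 and lower in 13. ESC was higher in 39 and lower in 3 of 48 as deposited, and higher in 32 and lower in 1 relative to the median gene. Shares by direction were not computed over all genes. Under both scales ESC stood above all 6 other tissues for Upf2, Smg1, Smg5 and Smg8. For the other 4 genes it did not. Of the 6 pairs ESC was higher in 5 for Upf1, in 4 for Smg6 and in 3 for Upf3a as deposited, and in 3, 3 and 2 relative to the median gene. For Smg9 it was higher in 3 and lower in 2 as deposited, and higher in 0 and lower in 1 relative to the median gene. The tissues were not all sequenced alike, since the reads of cortex, heart and kidney were longer and were trimmed by the authors, and the liver libraries came from an earlier study. Within cortex, heart and kidney 4 of 8 members passed the test across tissues, against 76.0% of all genes, and within lung, spleen and ESC 4 of 8, against 74.6%. Without liver 6 of 8 passed, against 96.3%, and the ranges of Upf1 and Smg6 were 0.95 and 0.93 log2. Without liver replicate 1 all 8 still passed.

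The levels of the members were positively correlated over the tissues, and less so for Smg8 once the fibroblasts were added. Over the 9 group means the 28 pairwise Pearson correlations ran from 0.164 to 0.952, and over the 7 tissues alone from 0.670 to 0.981. The lowest over the 9 means was that of Smg8 and Smg9, and the lowest without Smg8 was 0.510, of Upf3a and Smg5. These points share the depth and scaling of their libraries. Over the same 9 means and 18907 genes, the pattern most like that of Upf1 belonged to E2f4 (r = 0.998), that of Upf2 to Sbno1 (r = 0.994) and that of Upf3a to Anapc2 (r = 0.993). For Smg1 it was Ppp2r3c (r = 0.982), for Smg5 Dhx35 (r = 0.996), for Smg6 Mat2a (r = 0.984), for Smg8 Pramef8 (r = 0.986) and for Smg9 Phf21a (r = 0.991). Each of these values is the highest picked from 18907 genes over only 9 points. That none of these 8 nearest genes is another member therefore says nothing about the members.

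The exons of these genes were almost always included in the tissues. The share over all SE events was not computed, so this does not set these genes apart. The percent spliced in (PSI), here a fraction from 0 to 1, is the share of junction reads that include an exon after correction for the number of positions a read can take. With at least 20 reads in each library, 87 events gave 202 values, each the mean of an event in a tissue, of which 193 were at least 0.95, 2 lay between 0.1 and 0.9, and 4 were at most 0.1. All 4 low values belonged to a 300-base exon of Upf2 (chr2:6051885-6052184). It was skipped in nearly every read, for instance with 1 including and 395 skipping reads in cortex replicate 1 and 4 including and 599 skipping reads in spleen replicate 1.

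Both intermediate values belonged to a 58-base exon of Smg1 (chr7:118217720-118217777, minus strand), whose length is not a multiple of 3. Its PSI was 0.35 and 0.25 in cortex and 0.11 and 0.28 in ESC, so the libraries of the 2 tissues overlapped. In fibroblasts it was 0.33 and 0.27 in control and 0.48 and 0.53 after PladB, where the groups did not overlap but the change of 0.21 missed the threshold (adjusted p = 0.118). The exon was supported by few reads in fibroblasts, with 23 and 44 junction reads after PladB.

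No member event passed as different between tissues (43 tested, quasi-binomial test, adjusted p under 0.05 and a PSI range of at least 0.1), against 8.20% of 47963 events. None of the 43 reached an unadjusted p under 0.05, against 8821 of the 47963. The widest range, 0.11, was that of the 58-base exon of Smg1 (adjusted p = 0.725). Its call turned on 1 library, since without ESC replicate 2 the range was 0.19 and it passed (adjusted p = 0.0265).

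Nor did any member event pass as spliced differently by the alleles in a tissue. Differences between the alleles are given as C57BL/6J minus SPRET/EiJ PSI. In the 7 tissues 95 tests on member events gave no call, against 1.18% of 151935 tests, with 2 at an unadjusted p under 0.05 and a largest difference of 0.0877, in Smg1 in ESC. Over all events that unadjusted p was reached by 1204 of 30958 in ESC, the lowest share of a tissue, and by 3129 of 24320 in kidney, the highest. In control fibroblasts 0 of 15 passed, against 1.97% of 26332. None was at an unadjusted p under 0.05, against 3840 of all events. The allelic difference did not pass as varying by tissue in any of 19 member events, against 0.0284% of 31700, or by treatment in any of 3, against 0.00736% of 13585. In neither set did a member reach an unadjusted p under 0.05, against 981 and 636 of all events.

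The second question was what happens to these factors when splicing is blocked. In fibroblasts treated with PladB, 7 of the 8 fell and Smg8 did not pass. As deposited, 72.6% of 13221 genes fell and 15.0% rose, with a median change of -1.13 log2, so a fall was the rule and only its size tells the members apart. The median change of the 8 was -1.90.

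Smg9 fell most, from 17.97 and 16.7 TPM in control to 1.46 and 1.57 after PladB, which is 8.72% of its control mean (log2 change -3.44, SE 0.07, adjusted p = 2.07e-05). Smg5 fell from 42.0 and 38.7 TPM to 5.53 and 7.13, or 15.7% of control (-2.66, SE 0.14, adjusted p = 0.000141). Upf2 fell from 19.2 and 18.7 TPM to 3.78 and 3.70, or 19.7% of control (-2.31, SE 0.05, adjusted p = 2.08e-05). The treated libraries of all 3 genes lay far below the control libraries, and these falls exceeded the median of all genes by more than 1 on the log2 scale.

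Smg6 fell from 19.6 and 17.8 TPM to 4.397 and 4.19, or 22.9% of control (-2.10, SE 0.07, adjusted p = 4.15e-05). Smg1 fell from 13.9 and 14.6 TPM to 4.17 and 4.42, or 30.1% of control (-1.71, SE 0.06, adjusted p = 4.20e-05). Upf1 fell from 60.6 and 56.6 TPM to 20.3 and 18.9, or 33.5% of control (-1.57, SE 0.07, adjusted p = 7.59e-05). In these 3 genes the treated libraries also lay below both control libraries, and replicates lay closer together than the groups.

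Upf3a fell less than the median gene, from 66.0 and 68.9 TPM to 34.1 and 34.8, or 51.1% of control (-0.97, SE 0.05, adjusted p = 0.000134). Smg8 was 24.6 and 24.98 TPM in control and 26.9 and 28.8 after PladB, so the treated libraries lay above the control libraries without overlap, but the change missed the threshold (0.17, SE 0.06, adjusted p = 0.055). The order of the levels turned with it. Upf3a and Upf1 were the highest of the 8 in control fibroblasts, at means of 67.4 and 58.6 TPM, and Upf3a and Smg8 after PladB, at 34.5 and 27.8, while Smg9 became the lowest at 1.51. Smg8 and Upf3a are also the shortest of the 8 genes, and the part of length in the result was not tested.

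Relative to the median gene of each library, where 51.4% of all genes rose and 36.5% fell, 5 members fell and 2 rose. Smg9 (-2.01), Smg5 (-1.24), Upf2 (-0.88), Smg6 (-0.67) and Smg1 (-0.28) kept their direction, and the change of Upf1 no longer passed (-0.15, adjusted p = 0.139). Upf3a turned from a fall as deposited to a rise (0.46, adjusted p = 0.00202), and Smg8 rose by 1.59 (adjusted p = 4.75e-05).

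**Figure D2:**
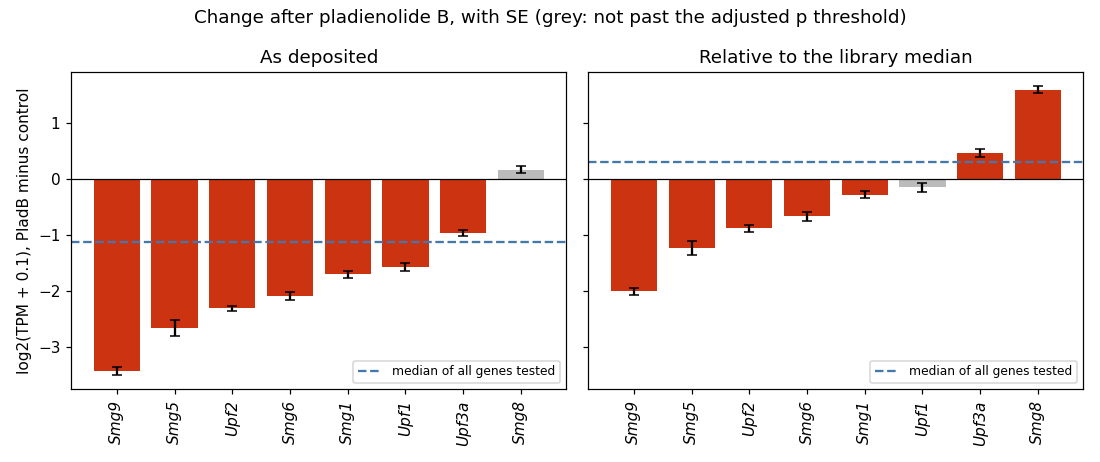
Change after PladB (vertical axis, log2(TPM + 0.1), PladB minus control) of the 8 genes (horizontal axis), as deposited and relative to the median gene of each library; bars are the fitted change, whiskers its SE, grey bars did not pass, and the dashed line is the median of all genes tested. Smg9, Smg5 and Upf2 lie below the dashed line in both panels, Smg8 above it in both, and Upf3a changes sign.

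Junction reads gave a second measure of spliced RNA. They were scaled to the junction reads over SE events in each library, at the event of each gene with most reads over the 4 fibroblast libraries. PladB libraries held 0.0694 times the control for Smg9, 0.0750 for Upf1, 0.136 for Smg1, 0.136 for Smg5, 0.147 for Upf2 and 0.296 for Smg6. Upf3a stood at 0.616 times control and Smg8 at 0.671, above the median ratio of 0.346 over 10047 genes, where the other 6 lay below it. That median covers only genes with a control level of at least 20 reads, a filter on 1 group that can lower the ratio. Upf1 differed most between the measures, at 33.5% of control in TPM and a ratio of 0.0750 in junction reads, and Smg8 differed in direction, at 112% of control in TPM.

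Genes that work beside the 8 were described from lists. Of 11 other factors of the pathway, 10 fell and none rose (median -1.19), with Dhx34, a helicase of the pathway, at -1.72, and only Ncbp2 did not pass (-0.10). All 7 exon junction complex genes tested fell (median -1.09), from Casc3, a core subunit, at -4.11 and Rnps1, a peripheral one, at -1.36 to Rbm8a, another core subunit, at -0.31. All 13 decay enzymes and cofactors fell (median -1.98), led by the decapping factors Edc3 (-3.54) and Dcp1b (-3.00). Over all genes 72.6% fell, with a median of -1.13. Relative to the median gene, where 51.4% of all genes rose and 36.5% fell (median 0.29), 11 of the 13 decay genes fell (median -0.55). On that scale 5 of the 11 other factors rose and 1 fell, and 4 of the 7 exon junction complex genes rose and 1 fell, shares of risen genes near that of all genes.

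Of 8 transcripts known as targets of the pathway, 4 rose and 2 fell as deposited (median 0.18), beside 15.0% of all genes risen and 72.6% fallen. Relative to the median gene 6 rose and 2 fell (median 1.60), beside 51.4% risen and 36.5% fallen, and the difference of the list from other genes was not tested. Gadd45b, a stress-response gene, rose from 210.3 and 202 TPM to 1922 and 2409 (3.38 log2, adjusted p = 5.16e-05), and its paralogue Gadd45a from 70.8 and 71.3 to 258 and 334 (2.04 log2, adjusted p = 0.000306). Atf4, a transcription factor of the integrated stress response, rose by 1.30 log2 and the snoRNA host gene Snhg12 by 0.48. Tbl2 (-2.75) and Ern1 (-2.11) fell, and Gas5 (-0.12) and Ddit3 (-0.15) did not pass.

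Splicing of the 8 genes after PladB moved with that of other genes. Of 73 member events tested, 54 had a lower PSI and 19 a higher one (73.97% lower, against 74.3% of all 54535), and 25 reached an unadjusted p under 0.05 (34.2%, against 32.2%). In control fibroblasts 75 of 77 events were at a PSI of at least 0.95, and after PladB 55 of 73. These shares were not computed over all events. The calls were 4, all toward skipping, against 7.20% of all events called lower and 0.114% called higher, which is 5.48% of the member events.

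The largest change was in Upf3a. Its 56-base exon at chr8:13795440-13795495 had a PSI of 1.00 and 1.00 in control and 0.57 and 0.59 after PladB (change -0.42, adjusted p = 0.0017). Its 107-base exon at chr8:13786147-13786253 had 1.00 and 1.00 in control and 0.85 and 0.88 after PladB (change -0.14, adjusted p = 0.00323). Both events count the same skipping junction, which joins the exon ending at position 13785884 to that starting at 13795584 and jumps over 5 exons listed for the gene, together 480 bases, a multiple of 3.

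That junction had 39 and 41 reads in the PladB libraries and 0 in either control library, where 1435 reads included the 107-base exon (a count of 0 allows a share of up to 0.209%, counting error only). The events differ in PSI because their inclusion junctions were covered unequally, with 869 reads at the 107-base exon and 151 at the 56-base exon over both PladB libraries. They are thus 1 junction seen from both ends and not 2 independent exons. The most 3′ of the alternative exons listed for the gene, 134 bases at chr8:13796459-13796592, also passed on p (adjusted p = 0.00838), but its change of -0.07 was under 0.1.

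In Smg1, the 190-base exon at chr7:118145968-118146157 had a PSI of 0.99 and 0.99 in control and 0.74 and 0.91 after PladB (change -0.17, adjusted p = 0.0441). The neighbouring 151-base exon, skipped by the same reads, went from 0.99 and 0.99 to 0.76 and 0.92 and missed the threshold (-0.15, adjusted p = 0.0535). In Smg9, the 113-base exon at chr7:24407521-24407633 went from 1.00 and 1.00 to 0.91 and 0.88 (change -0.10, adjusted p = 0.0344). Both calls rest on few skipping reads, 11 and 5 for Smg1 and 3 and 3 for Smg9 in the PladB libraries. The Smg1 call was lost without PladB replicate 1 (change -0.09, adjusted p = 0.143), and the Smg9 call was lost without either replicate of either group.

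Other changes of at least 0.1 did not pass and mostly came from 1 library. The 75-base exon of Smg5 (chr3:88360331-88360405) had 0.71 and 0.97 after PladB against 1.00 and 1.00 in control, and the 184-base exon of Upf2 (chr2:6029362-6029545) had 0.80 and 0.96 against 1.00 and 1.00. The 102-base exon of Upf2 (chr2:6040109-6040210) had 0.75 and 0.93 against 1.00 and 1.00. In all 3 the lower value was that of PladB replicate 1. The same held for a pair of Smg1 exons, of 219 bases (chr7:118156517-118156735) and 110 bases (chr7:118156860-118156969), at 0.78 in PladB replicate 1 and 1.00 in replicate 2 (adjusted p = 0.161 and 0.155). Fitting the replicate number as a block left no call among the members and none among all 54535 events (adjusted p = 0.404 for the 4 member events), with 1 residual degree of freedom.

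**Figure D3:**
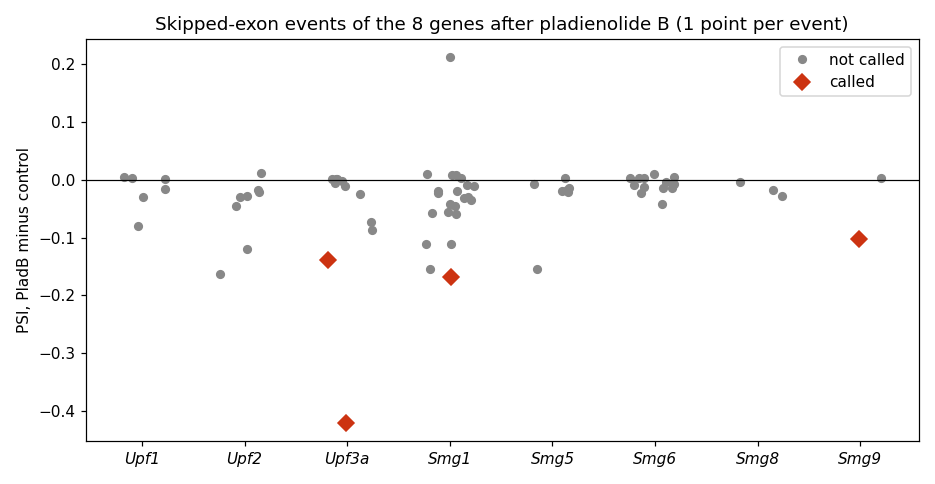
Change in PSI (vertical axis, PladB minus control) of the 73 SE events of the 8 genes (horizontal axis), 1 point per event, with red diamonds for the 4 that passed. Most points lie at or just below 0, the 2 diamonds of Upf3a at -0.42 and -0.14, and the highest point is the 58-base exon of Smg1 at 0.21.

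Skipping in Upf3a differed between the alleles among the reads assigned to them. After PladB the 107-base exon had a PSI of 0.45 and 0.46 on the C57BL/6J allele and 0.97 and 0.99 on the SPRET/EiJ allele (difference -0.53, adjusted p = 0.000492). It was the only call among 18 member events, against 1.78% of 29742. The 56-base exon had 0.43 and 0.51 on the C57BL/6J allele and 0.89 and 0.95 on the SPRET/EiJ allele (difference -0.45), which missed the threshold (adjusted p = 0.0579). The libraries are shared by the alleles, and with the library as a block neither event passed (adjusted p = 0.559 for both), nor did any event of the table.

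In reads, the shared skipping junction had 35 and 40 from C57BL/6J and 3 and 1 from SPRET/EiJ. The 107-base exon was included by 108 reads from C57BL/6J and 439 from SPRET/EiJ over both libraries. All reads there were 80 skipping and 869 including, so a larger part of the skipping reads was assigned to an allele. At the 56-base exon, inclusion reads numbered 93 and 58, of 151 in all. Skipping and inclusion reads are thus assigned from unlike sequence, and the effect of this on the allelic PSI was not tested. SPRET/EiJ thus gave more of the inclusion reads at the exon nearer the 5′ end and C57BL/6J more of those at the exon nearer the 3′ end. Neither event is listed with allelic values in control fibroblasts, so a change of the allelic difference with treatment could not be tested.

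**Figure D4:**
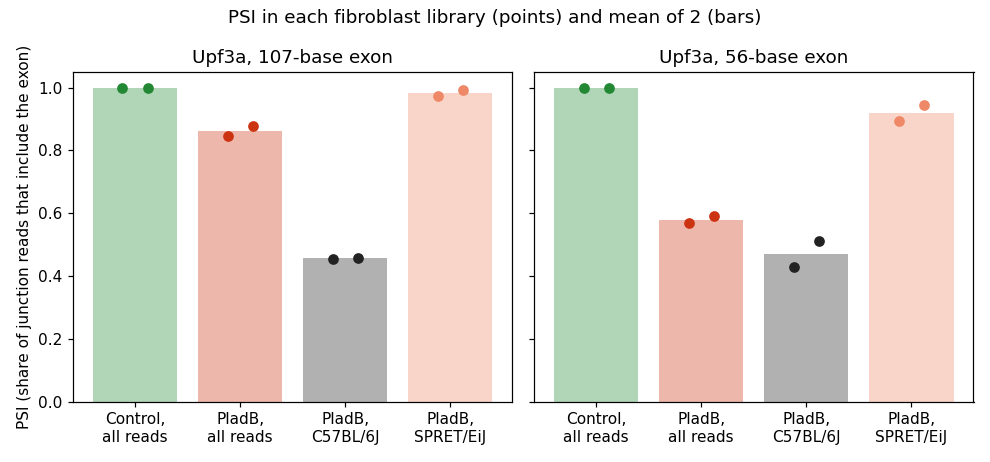
PSI (vertical axis, 0 to 1) of the 107-base and the 56-base exon of Upf3a in control and PladB fibroblasts, from all reads and, for PladB, from the reads of each allele; points are libraries and bars the mean of 2. The C57BL/6J points lie between 0.43 and 0.51 and the SPRET/EiJ points between 0.89 and 0.99.

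The share of junction reads that came from the C57BL/6J allele adds a view of allelic level. It is a description of reads that carry a strain difference and depends on which exons carry one, and the median event stood at 50.2% to 50.8% in every group. The 107-base exon of Upf3a, with its usual neighbours, went from 43.6% and 43.6% in control to 20.4% and 21.6% after PladB, a shift of -22.6 points. The 82-base exon of Smg6 (chr11:75159825-75159906) went the other way, from 31.2% and 34.1% to 57.7% and 54.2%, a shift of 23.3 points. Of 16711 events with values in both conditions, 2.78% shifted by at least 20 points with replicates apart, and 2 of the 5 events of members did, those named here. A second exon of Smg6 (177 bases, chr11:75139193-75139369) went from 34.7% and 32.7% to 30.4% and 25.3%, so exons of 1 gene did not share a shift. The Upf3a share leaves out the long skipping junction described above, which had 75 C57BL/6J and 4 SPRET/EiJ reads after PladB. The Upf3a shift is therefore not independent of that skipping.

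**Figure D5:**
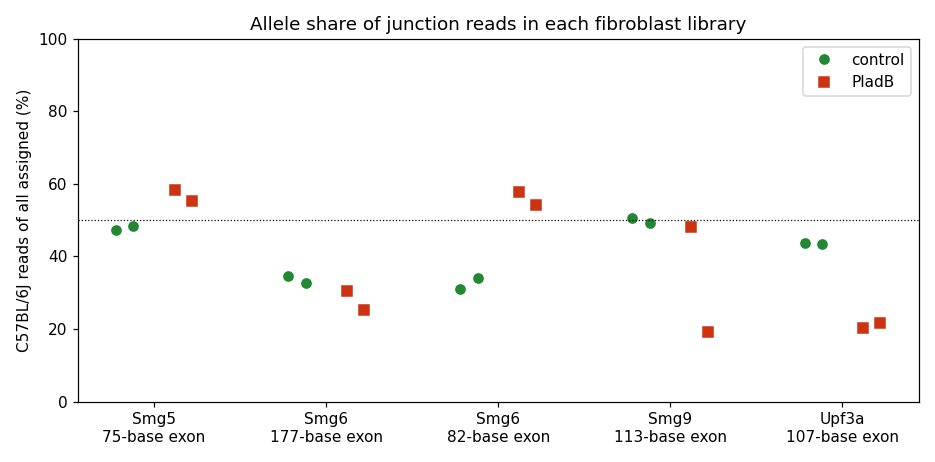
C57BL/6J share of assigned junction reads (vertical axis, percent) at the 5 member exons with at least 20 reads in all 4 fibroblast libraries, control circles beside PladB squares, 1 point per library. Upf3a drops from 43.6% to about 21% and the 82-base exon of Smg6 rises past the dotted line at 50%.

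Along Upf3a the share changed with position. After PladB the 99-base exon at chr8:13791882-13791980 stood at 24.3% and 28.1%, and the 134-base exon at chr8:13796459-13796592, nearer the 3′ end, at 69.4% and 78.5%. In ESC the latter stood at 79% and 73.96%, while the 99-base exon was at 50.3% and 38.4%. Heart was the tissue furthest from the rest at the 99-base exon, at 26.9% and 28.2%, below the 5th percentile of all heart events (31.4%), against 46.1% and 52.0% in kidney, 46.7% and 50.8% in spleen, 49.5% and 43.8% in liver and 50.8% and 44.9% in lung.

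The other members varied among exons and tissues. At its best covered exon Upf1 ran from 48.2% to 52.3% in cortex, kidney, lung and spleen. Smg6 was at 34.7% and 29.7% in heart at its 177-base exon, and another exon of it stood at 88.9% and 65.4% in liver, from 24 and 34 C57BL/6J and 3 and 18 SPRET/EiJ reads. Smg9 was at 66.5% and 64.7% in heart and Upf2 at 34.9% and 38.0% in spleen. Upf2 was also at 34.7% and 36.3% in control fibroblasts, in a window of chromosome 2 whose median event stood at 29.4% to 32.9% in the 4 fibroblast libraries.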

How the data were processed

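RNA-seq libraries of 7 tissues and of DMSO- or PladB-treated fibroblasts were analysed from deposited tables. According to the study's methods, the authors aligned reads to both parental genomes with HISAT2 (version 2.0.1 per the submitters' processing notes, build mm10), lifted SPRET/EiJ alignments to C57BL/6J coordinates and assigned reads to the nearer genome. The TPM values were deposited by the authors per gene and library. The splicing tables were deposited by the authors as rMATS output, with inclusion and skipping junction counts as comma lists per group, for all reads and for each allele. Their p-value, FDR and inclusion difference columns hold the authors' own comparisons and were not used. The PSI was recomputed from the counts and effective lengths, with at least 20 reads in each library. In tissues, allelic tests kept events whose PSI from assigned reads lay within 0.1 of that from all reads. This filter was not applied in fibroblasts.

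TPM were tested as log2(TPM + 0.1) with limma 3.58.1 in R 4.3.3, in genes with a mean TPM of at least 1, so that fold changes of low genes are understated. PSI was tested with a quasi-binomial F test whose dispersions were moderated with limma by depth and held at 1 or more. P-values were adjusted by Benjamini-Hochberg over all genes or autosomal events tested. A call needed an adjusted p under 0.05 and, for tissues, a range of 1 log2, or, for PSI, a difference of 0.1. The count model first intended for junction reads was replaced by this test because the tables hold counts as lists. Both tests were run on simulated data. For PSI, changes were simulated only in events of intermediate PSI. Changes from near full inclusion, like those of the member exons called after PladB, were not covered.

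All 8 genes were named, with exons called in a test or with a mean PSI between 0.1 and 0.9 in any group, for each the event with most reads. Of companion lists the largest changes were to be named, and 1 of these is not reported here. Further exons and the shares along Upf3a, and Atf4, Snhg12, Rbm8a and the list members that did not pass, were chosen after their values were seen. The genes and lists were chosen with earlier results of these data known. Replicate numbers were not taken as pairs, since the methods do not say that they mark 1 animal. For TPM the correlations of same-numbered deviations were all positive between organs, from 0.0368 (kidney and liver) to 0.212 (heart and spleen). Among the tissues, negative values, down to -0.0417 (kidney and ESC), occurred only with ESC. Between control and PladB fibroblasts the value was -0.0123. Whether the numbers mark 1 animal in the organs was not tested. Alternatives tried were another pseudocount, filters, centring on the median gene, a replicate block, 50 reads, no depth trend, leaving out each library, and, added after the data were seen, subsets of tissues.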

Additional observations from a re-analysis of the deposited data

Results flagged for a closer look

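At 2 exons the C57BL/6J share of junction reads lay on 1 side of 50% in both control fibroblast libraries and on the other side in both PladB libraries. For the 75-base exon of Smg5 it went from 47.2% and 48.3% to 58.3% and 55.3%, a shift of 9.05 points, from 14 and 21 C57BL/6J and 10 and 17 SPRET/EiJ reads in the PladB libraries. For the 82-base exon of Smg6 it went from 31.2% and 34.1% to 57.7% and 54.2%, a shift of 23.3 points, from 41 and 45 C57BL/6J and 30 and 38 SPRET/EiJ reads. The difference was not tested in either case, and the median absolute shift over 16711 events was 3.49 points.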

How the results depend on the processing

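Of 199 recomputed summary counts, 186 stayed within 1.5 times the reported value and 13 did not. Of 471 recomputed values of single genes and exons, 433 kept their direction and side of the threshold, 13 gained a call, 24 lost one and 1 turned. That one was Upf3a after PladB, a fall as deposited and a rise of 0.46 log2 relative to the median gene. Within cortex, heart and kidney, and within lung, spleen and ESC, 4 of 8 members passed across tissues. The shares over all genes there were 76.0% and 74.6%. Within lung, spleen and ESC 54.2% of member pairs passed (64.7% over all genes), against 85.1% over all tissues (76.2% over all genes), and 778 of 29780 SE events (3932 of 47963 over all tissues). These subsets hold fewer samples.

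With a replicate block, which leaves few degrees of freedom, calls fell to 0 for allelic events in tissues (1790 without the block), to 0 for allelic events in fibroblasts (1049, of which 1 of a member became 0), to 0 for allele by treatment (1), to 2 for allele by tissue (9), and to 0 for SE events after PladB (3987, of which 4 of members became 0). The block changed no other count by over 1.5 times. In PSI the correlations of same-numbered deviations ran from -0.102 (lung and ESC) to 0.0796 (cortex and liver) between tissues. Between organs the lowest was -0.0505 (cortex and heart). The alleles of 1 library are paired by design, and their deviations correlated at 0.116 to 0.633 in the 7 tissues, highest in ESC, and at 0.0925 and 0.0285 in control and PladB fibroblasts. The allelic tests without the block treat them as independent. Leaving out 1 library at a time gave 0 to 1 member calls across tissues (1 without ESC replicate 2) and 3 to 7 after PladB (3 of 74 without PladB replicate 1, beside 4337 of all 56695 events, and 7 of 75 without PladB replicate 2, beside 3028 of 55130), where the lone sample is assumed to vary like the others. Smg8 passed after PladB as a rise with a pseudocount of 1 (0.16 log2, adjusted p = 0.044 by limma) and without PladB replicate 1 (0.22, adjusted p = 0.030 by limma). With 50 reads 3 of 53 member exons passed (2783 of all 46348), and without the depth trend 3 of 73 (3824 of all 54535). The planned count-based quasi-likelihood test of junction reads was not run. Differences in PSI under 0.1 were not called by rule, whatever their p. The calls in Smg1 and Smg9 rest on at most 11 skipping reads in a PladB library.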

Other observations

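In liver replicate 1 the windows of chromosome 7 that begin at 10, 20 and 30 Mb had median C57BL/6J shares of 99.69%, 99.98% and 99.95% over 90, 108 and 93 events, and Smg9 lies in the window that begins at 20 Mb. In ESC replicate 2 the windows of chromosome 14 that begin at 110 and 120 Mb had 97.7% and 97.8% over 29 and 45 events, and none of the 8 genes lies there. The windows that hold the 8 genes ran from 29.4% to 60.9% in the other cases. Genes with a known expressed parental copy were scored only by which allele gave more reads. That copy gave more in 37 of 37 gene and group pairs of organs and fibroblasts and in 2 of 8 in ESC. The score does not ask for reads from that copy alone. The 2 pairs in ESC were the paternally expressed Mest and Impact, with C57BL/6J shares of 45.7% and 44.2%, near an even split. Among the 37, the share nearest an even split was that of the maternally expressed Igf2r in cortex, at 56.2% (136 C57BL/6J and 106 SPRET/EiJ reads).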
